A study of Mus musculus with 46 samples.

Results

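The 9 genes described here are members of the STAT and SOCS families other than those at the core of leptin receptor signaling: *Stat2*, *Stat5a*, *Stat5b*, *Stat6*, *Cish*, *Socs1*, *Socs2*, *Socs5* and *Socs7*. They were taken by symbol from the RNA count table, where they are 9 of 31854 genes, together with every open chromatin region (ATAC peak) with a base within 50 kb of one of their start sites, which gave 77 of 123721 peaks. In a second table, of sorted nuclei, the same window held 45 of 67472 peaks. All 9 genes passed the filter on low counts in both neuron types. RNA was bound to tagged ribosomes of AgRP or POMC neurons of the arcuate nucleus (ARC) of the hypothalamus, and open chromatin was read in nuclei of AgRP neurons. The mice of the RNA and ATAC libraries were male C57BL/6J animals of 6 to 11 weeks carrying the NuTRAP cassette and a Cre allele. In this cassette a loxP-stop-loxP sequence precedes a GFP-tagged L10a ribosomal subunit and mCherry-tagged RANGAP. The Cre allele was either AgRP-IRES-Cre (NuTRAP AgRP) or POMC-IRES-Cre (NuTRAP Pomc). Fed mice had food ad libitum and received vehicle. Fasted mice went without food for 18 to 20 h and received vehicle, and leptin-treated mice were fasted in the same way and received leptin at 5 mg/kg i.p. All were killed 3 h after the injection. Each RNA or ATAC sample pooled 4 ARCs. The AgRP RNA libraries were 3 fed, 4 fasted and 4 leptin-treated, and the POMC RNA libraries and the AgRP ATAC libraries were 2 in each state. The second ATAC table held 2 AgRP-positive and 2 AgRP-negative libraries of nuclei sorted from fed mice without treatment. A list of IRF3 binding peaks was also used, taken to be from CUT&RUN in AgRP neurons of untreated fed mice overexpressing IRF3-2D. IRF3-2D is a constitutively active form of IRF3, and these mice were not those of the 3 states. What is measured follows the cells in which Cre was active at some point, and in such bulk samples fewer cells of a type and less RNA per cell cannot be told apart.

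Cytokine and hormone receptors that lack a kinase of their own signal through JAK kinases, which phosphorylate STAT proteins; paired STATs then enter the nucleus and bind DNA. SOCS proteins and CIS, the product of *Cish*, are induced by this signaling and restrain it, by blocking the kinase, by occupying the receptor, or by directing its parts to a ubiquitin ligase. In the arcuate nucleus the best known branch is leptin acting through JAK2 and STAT3 to induce *Socs3*. STAT2 works with IRF9 in the interferon-stimulated gene factor complex (ISGF3), STAT5A and STAT5B transmit growth hormone, prolactin and other cytokines, and STAT6 transmits the interleukins of type 2 immunity. CIS and SOCS2 restrain growth hormone and STAT5 signaling, SOCS1 inhibits JAKs downstream of interferons, and SOCS5 and SOCS7 are larger members of the SOCS family.

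The sequences below are those around the start sites of *Socs1*, *Stat2* and *Cish*, whose RNA changed, and those of the 2 peaks beside *Socs1* on which the chromatin results turn. *Socs2*, whose RNA also changed, had no promoter window to show. The patterns searched, on both strands, were TTCNNNGAA, the paired site of most STATs (GAS), TTCNNNNGAA, the wider spacing that STAT6 accepts, and GAAANNGAAA (TTTCNNTTTC on the other strand), the core of the ISGF3 element (ISRE). These 3 patterns were found in 8.3%, 6.95% and 3.44% of 32851 promoter windows of RefSeq (GRCm38.p6), which run from 250 bases before to 50 bases after a start. That table held promoters of 6 members (*Cish*, *Socs1*, *Stat2*, *Stat5a*, *Stat5b* and *Stat6*). The window of *Socs1* held 2 overlapping ISRE cores, that of *Stat2* 1 ISRE core and 1 of the wider sites, and that of *Cish* 2 GAS, while the windows of *Stat5a*, *Stat5b* and *Stat6* held none of the 3. The open chromatin peak at the *Cish* start holds 4 GAS in its central 300 bases, shown as 2 stretches of an exon (UTR) of the gene. The 2 in the first stretch are the same as the 2 of the promoter window. That whole window lies downstream of the gene-record start from which the distances of *Cish* peaks were taken. Capitals mark the matched patterns, and each sequence is read 5′ to 3′ on mm10, on the strand given.
Socs1 promoter, chr16:10785567-10785666, minus strand, 130 to 31 bases before the start: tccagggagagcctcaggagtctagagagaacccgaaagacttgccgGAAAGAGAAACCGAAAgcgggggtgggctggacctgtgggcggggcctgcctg
Stat2 promoter, chr10:128270248-128270347, plus strand, 250 to 151 bases before the start: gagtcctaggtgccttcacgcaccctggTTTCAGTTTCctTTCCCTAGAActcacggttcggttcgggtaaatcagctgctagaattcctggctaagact
Cish exon, chr9:107296654-107296683, plus strand: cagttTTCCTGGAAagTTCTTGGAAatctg
Cish exon, chr9:107296762-107296791, plus strand: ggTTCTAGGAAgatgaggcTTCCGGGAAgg
Socs1 peak 13.2 kb downstream of the start, chr16:10772182-10772481, plus strand, 2 GAS: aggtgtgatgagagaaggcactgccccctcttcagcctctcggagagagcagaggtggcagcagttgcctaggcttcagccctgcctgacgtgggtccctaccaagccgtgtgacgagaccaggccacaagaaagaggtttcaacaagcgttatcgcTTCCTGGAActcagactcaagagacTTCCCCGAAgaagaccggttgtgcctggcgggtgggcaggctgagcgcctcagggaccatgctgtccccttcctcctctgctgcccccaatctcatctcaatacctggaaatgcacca
Socs1 peak 30.9 kb downstream of the start, chr16:10754528-10754827, plus strand, with no match to the 3 patterns; capitals mark 4 matches to TGANTCA, the AP-1 pattern: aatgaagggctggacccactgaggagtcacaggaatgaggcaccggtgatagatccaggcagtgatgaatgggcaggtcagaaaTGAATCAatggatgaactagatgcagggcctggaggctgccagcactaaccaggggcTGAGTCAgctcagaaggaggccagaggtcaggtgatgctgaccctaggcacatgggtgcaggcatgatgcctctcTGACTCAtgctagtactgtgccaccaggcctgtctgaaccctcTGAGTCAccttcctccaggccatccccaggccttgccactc

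Total counts were 25581041 to 54511107 in the 17 RNA libraries, 8263234 to 17190963 in the 6 ATAC libraries of AgRP neurons and 8685497 to 11177208 in the 4 of sorted nuclei. The 5 markers of AgRP neurons (*Agrp*, *Npy*, *Corin*, *Otp*, *Ghsr*) summed to 1037 to 1708 CPM (counts scaled to the size of the library) in fed, 2104 to 5577 in fasted and 1441 to 5791 in leptin-treated AgRP libraries, and to 46.1 to 124 CPM in POMC libraries. All 5 were higher in AgRP than in POMC libraries by edgeR, and all 4 POMC markers were lower. The 9 microglial markers in the table, a cell type in which several of these genes are also active, summed to 25.9 to 45.9 CPM in fed, 20.3 to 44.9 in fasted and 22.1 to 42.1 in leptin-treated AgRP libraries, with none at 0 in any group. The 6 astrocyte markers spanned 541 to 888, 426 to 965 and 424 to 964 CPM, and the 7 oligodendrocyte markers 500 to 802, 432 to 761 and 441 to 841 CPM. The ranges of these 3 non-neuronal lists overlapped between all states, and their part in the results was not tested. For leptin against fasted the median log2 fold changes of the 3 lists were 0.03, 0.10 and 0.13, with no call.

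Per length of transcript, *Socs5* was the most abundant member in fed AgRP neurons, at a level of 37.9 ± 1.16 CPM per kb (SD, n = 3). *Socs7* (18.7 ± 0.883 CPM per kb) and *Stat5b* (18.3 ± 0.629 CPM per kb) came next, and the ranges of these last 2 levels overlapped. The other 6 were far lower, from 4.12 ± 1.38 CPM per kb for *Cish* to 1.51 ± 0.224 for *Stat5a*, and every neighbouring pair among them overlapped. Under leptin *Socs2* came next after these 3, at a level of 5.38 ± 0.849 CPM per kb (n = 4), above *Cish* at 3.88 ± 0.247 CPM per kb without overlap. In fasted libraries *Socs1* was last, at 1.11 ± 0.0865 CPM per kb, below *Stat5a* without overlap. POMC neurons had the same 3 genes at the top in each state.

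Fasting was compared with feeding in AgRP neurons to ask how the family responds when food is withdrawn. The 2 inhibitors *Cish* and *Socs1* fell, by the call used throughout (false discovery rate, FDR, under 0.05 over all genes tested and an absolute log2 fold change over 0.5), and no member rose. Of the 13401 genes tested, 3.89% were called, 2.82% as higher and 1.07% as lower. *Cish* stood at 15.9, 13.5 and 7.81 CPM in the fed libraries and at 6.34, 7.59, 6.88 and 7.39 CPM in the fasted ones. Every fasted library lay below every fed one, by little for fed replicate 4. The log2 fold change was -0.82 (SE 0.19, edgeR FDR = 0.0323), a level 0.567 times that of fed mice.

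*Socs1*, an inhibitor of interferon signaling, was a low-count gene, with 48 to 105 reads in fed and 43 to 69 in fasted libraries. Its levels were 2.64, 2.63 and 2.01 CPM in fed and 1.54, 1.31, 1.50 and 1.57 CPM in fasted libraries, again without overlap. The log2 fold change was -0.72 (SE 0.18, edgeR FDR = 0.0450). Both calls were near the threshold. Leaving out 1 library at a time kept the call for *Cish* in 2 of 7 fits, those without fasted replicate 4 or fed replicate 4 (FDR 0.00298 to 0.1495 over the 7), and for *Socs1* in none (FDR 0.0507 to 0.166), with the log2 fold change between -1.08 and -0.60 for *Cish* and between -0.86 and -0.66 for *Socs1*. With the replicate number as a block, which pairs these libraries, the FDR was 0.00329 for *Cish* and 0.0150 for *Socs1*. Most tested markers of microglia, astrocytes and oligodendrocytes were also lower in fasted libraries. Of the 4 tested tanycyte and ependymal markers, 2 had a log2 fold change above 0 (median -0.16). The median log2 fold change was -0.59 over the 6 tested microglial markers and -0.28 over the 6 astrocyte markers, all below 0, and -0.43 over the 7 oligodendrocyte markers, of which 1 was above 0. None of these was called without the block, and with it 2 microglial markers (*Cx3cr1*, *P2ry12*), 1 astrocyte marker (*Aqp4*) and 1 oligodendrocyte marker (*Mog*) were called lower. Their part in the lower *Cish* and *Socs1* levels was not tested.

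The other 7 members were not called on fasting. *Stat2* stood at 9.95, 7.88 and 9.78 CPM in fed and at 6.04, 7.67, 6.60 and 7.13 CPM in fasted libraries, without overlap, but its log2 fold change of -0.42 (SE 0.15) had an FDR of 0.149. Groups without overlap were common in this comparison: 3 of the 9 members (*Stat2*, *Cish*, *Socs1*) had them, against 18.3% of all genes tested. *Socs2* was at -0.35 on the log2 scale (SE 0.16, FDR = 0.262) and *Stat5b* at -0.21 (SE 0.08, FDR = 0.152). With the replicate block *Stat5b* was at -0.19 with an FDR of 0.0264, short of the fold threshold. The FDR with the block was 0.0665 for *Stat2* and 0.155 for *Socs2*. *Stat5a*, *Stat6*, *Socs5* and *Socs7* lay between -0.15 and 0.14 on the log2 scale. The median log2 fold change of the members was -0.21, and that of all genes 0.02.

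**Figure D1:**
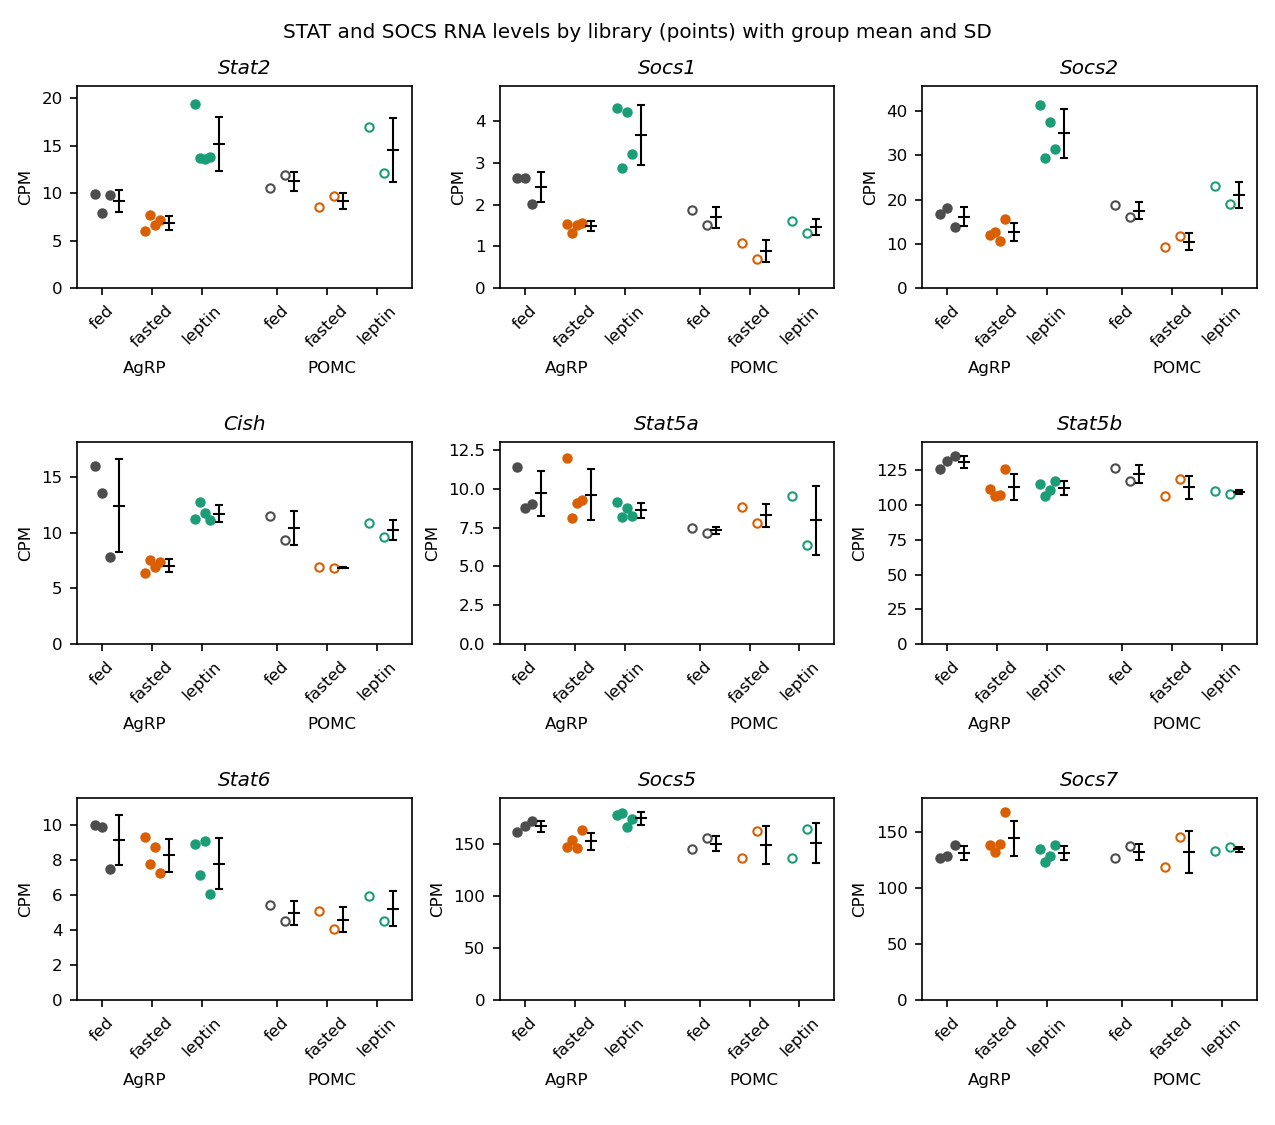
Level of each member (CPM, vertical axis from 0, own scale in each panel) in each RNA library of AgRP and POMC neurons, by feeding state; points are libraries (filled AgRP, open POMC), and the bar beside each group is its mean with 1 SD. Among the AgRP libraries, the 4 leptin-treated ones lie above all fed and fasted ones for *Stat2*, *Socs1* and *Socs2*, while *Stat5a*, *Stat6* and *Socs7* overlap in all states.

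Leptin-treated and fasted mice were compared to ask what the hormone changes in the fasted state. *Socs2*, *Socs1* and *Stat2* rose and no member fell, where 1.83% of all genes tested were called, 1.19% as higher and 0.634% as lower. *Socs2*, the inhibitor tied to growth hormone signaling, went from 12.0, 12.7, 10.6 and 15.6 CPM in fasted libraries to 41.4, 29.3, 37.4 and 31.5 CPM in leptin-treated ones. The lowest leptin-treated library was well above the highest fasted one. The log2 fold change was 1.46 (SE 0.15, edgeR FDR = 0.000546), or 2.74-fold.

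*Socs1* reached 4.32, 2.89, 4.22 and 3.22 CPM under leptin, against 1.31 to 1.57 CPM in fasted libraries. The groups did not overlap, and the rise was 2.47-fold, or 1.31 on the log2 scale (SE 0.17, FDR = 0.00183). *Stat2* reached 19.4, 13.7, 13.6 and 13.8 CPM, against 6.04 to 7.67 CPM in fasted libraries. Its log2 fold change was 1.14 (SE 0.14, FDR = 0.00158), or 2.20-fold, and leptin replicate 1 stood above the other 3, which lay close together. All 3 calls held in each of the 8 fits that left out 1 library, with FDR up to 0.00961.

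*Cish* stood at 11.2, 12.7, 11.7 and 11.1 CPM under leptin, above all 4 fasted libraries. Its log2 fold change of 0.73 (SE 0.18) had an FDR of 0.0700 and was not called, but with the replicate block it was 0.74 with an FDR of 0.00900, which is a call. Over all its alternatives the FDR ran from 0.00572 with DESeq2 to 0.220 with library size alone. *Socs5* also had groups without overlap, at 146 to 163 CPM fasted and 166 to 179 CPM under leptin, a log2 difference of 0.20 (SE 0.06, FDR = 0.237). With the replicate block its FDR was 0.0265, and the change was short of the fold threshold. In all, 5 of the 9 members did not overlap, against 6.16% of all genes tested. *Stat5a*, *Stat5b*, *Stat6* and *Socs7* overlapped, with log2 fold changes between -0.16 and -0.01. The median over the 9 was 0.20, and over all genes -0.01.

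The third comparison, of leptin-treated fasted mice with fed mice, shares its libraries with the first 2. *Socs2* (log2 fold change 1.11, SE 0.16, FDR = 0.00264) and *Stat2* (0.72, SE 0.15, FDR = 0.0177) were higher than in fed mice, where 5.48% of all genes were called, 3.73% as higher and 1.75% as lower. The *Stat2* call was lost without fed replicate 3 (FDR = 0.0749) or fed replicate 4 (FDR = 0.0556) and held in the other 5 of 7 such fits. *Socs1* was not called (0.58, SE 0.18, FDR = 0.0688), although its lowest leptin-treated library, at 2.89 CPM, was above its highest fed library, at 2.64 CPM. With the replicate block it was called (0.67, FDR = 0.00435). *Cish* was near its fed level (-0.09, SE 0.19, FDR = 0.862). Groups did not overlap for 4 members (*Stat2*, *Stat5b*, *Socs1*, *Socs2*), against 21.3% of all genes, and *Stat5b* was the one on the low side, at 131 ± 4.49 CPM fed and 112 ± 4.83 CPM under leptin (-0.22, FDR = 0.107). With the replicate block the FDR of *Stat5b* was 0.0190, and the change was short of the fold threshold.

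**Figure D2:**
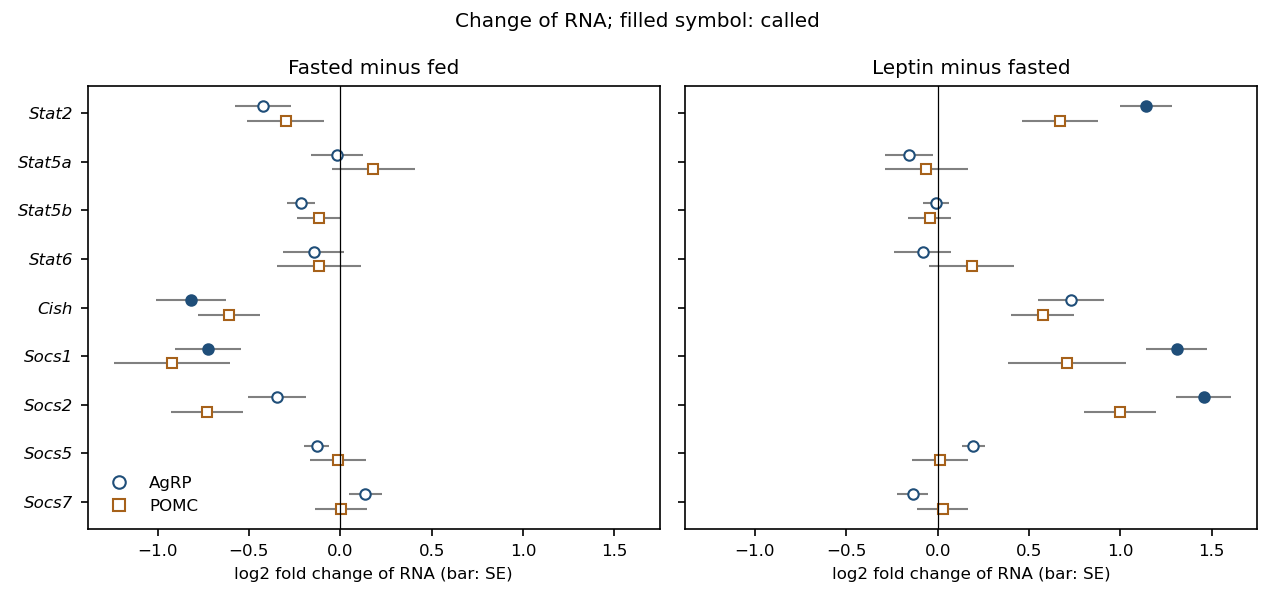
Log2 fold change of each member (horizontal axis, bars show 1 SE) for fasted minus fed and leptin minus fasted, in AgRP (circles) and POMC (squares) neurons; filled symbols passed the call. In AgRP neurons *Cish* and *Socs1* are filled at -0.82 and -0.72 for fasting, and *Stat2*, *Socs1* and *Socs2* between 1.14 and 1.46 for leptin; no POMC symbol is filled.

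In POMC neurons, with 2 libraries in each state, edgeR called no gene in any of the 3 comparisons, so 0% of 13412 genes tested. At an unadjusted p under 0.05 it had 282 genes for fasting, 151 for leptin against fasted and 282 for leptin against fed, and DESeq2 called 3, 10 and 7. Among the members, 3, 3 and 0 had an unadjusted p under 0.05 in these comparisons, against 2.1%, 1.13% and 2.1% of all genes. *Socs2* stood at 18.9 and 16.1 CPM in fed, 9.22 and 11.9 in fasted and 23.1 and 19.0 in leptin-treated POMC libraries. The fasted libraries were the lowest and both leptin-treated ones lay above the fed pair, the second by little. The log2 fold change was -0.73 (SE 0.20) on fasting and 1.00 (SE 0.20) under leptin against fasted. *Cish* was at 11.5 and 9.36, then 6.88 and 6.80, then 10.8 and 9.58 CPM, with log2 fold changes of -0.61 (SE 0.17) and 0.58 (SE 0.17).

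*Socs1* was at 1.87 and 1.52, then 1.07 and 0.698, then 1.60 and 1.32 CPM in the fed, fasted and leptin-treated POMC libraries, from 20 to 89 reads. *Stat2* was at 10.5 and 11.9, then 8.55 and 9.74, then 16.9 and 12.1 CPM. Both genes were lowest in the fasted libraries, and only *Stat2* had both leptin-treated libraries above the fed ones. The other 5 members had log2 fold changes between -0.12 and 0.19 for fasting and for leptin against fasted.

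Whether the state effects differed between the neuron types was tested by the interaction, in 1 fit of all 17 libraries. No member was called for either effect, where 0.164% and 0.0819% of the 13435 genes tested were. The leptin effect was larger in AgRP neurons by 0.59 log2 units for *Socs1* (SE 0.33), 0.47 for *Stat2* (SE 0.26) and 0.45 for *Socs2* (SE 0.26), each with an FDR of 1.00. The fasting effect differed by 0.37 for *Socs2* (SE 0.26, FDR = 0.820) and -0.22 for *Cish* (SE 0.30, FDR = 0.963).

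Averaged over the 3 states, 2 members were higher in AgRP than in POMC neurons, *Socs1* and *Stat6*, where 13% of all genes were called, 6.51% as higher and 6.45% as lower. The values here were scaled over all 17 libraries. Over all genes 875 were higher and 866 lower, and 1230 and 655 with library size alone. *Stat6*, the transducer of interleukins of type 2 immunity, ranged from 5.72 to 9.95 CPM over the 11 AgRP libraries, with a median of 8.64, and from 4.25 to 6.13 CPM over the 6 POMC libraries, with a median of 4.97. The groups overlapped only at the lowest AgRP library, and the log2 difference was 0.69 (SE 0.12, FDR = 0.000810). *Socs1* ranged from 1.28 to 4.31 CPM (median 2.59) in AgRP and from 0.726 to 1.93 CPM (median 1.48) in POMC libraries, at a log2 difference of 0.78 (SE 0.14, FDR = 0.000652). Both calls held in all 17 fits without 1 library. *Stat2* was lower in AgRP neurons by less than the fold threshold (-0.29, SE 0.11, FDR = 0.0434), and the other 6 members lay between -0.05 and 0.22 log2 units. None of the 7 tested microglial markers was called between the neuron types, while 1 astrocyte marker (*Slc1a3*, -0.65) and 1 endothelial marker (*Kdr*, -1.01) were lower in AgRP libraries. Their part in the result was not tested.

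The rest of the pathway was taken from lists of receptors, kinases, regulators and target genes. Among 5 tested of the 6 other STAT and SOCS genes, only *Socs3*, the feedback inhibitor of leptin signaling, was called in AgRP neurons, with log2 fold changes of -1.98 on fasting and 3.73 under leptin, from 2.36 ± 0.403 to 31.5 ± 5.56 CPM. *Stat3* was at 0.00 and 0.42 (FDR = 0.267). Of the 4 JAK kinases only *Jak2* was called, under leptin against fasted (0.52, FDR = 0.0136).

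Of 20 cytokine receptor genes tested, 3 rose on fasting: *Il2rg* (1.54), the common gamma chain, *Ghr* (1.05), the growth hormone receptor, and *Il6ra* (0.74). The leptin receptor *Lepr* had a log2 fold change of 1.19 with an FDR of 0.0522, and was called with the replicate block. Under leptin against fasted, *Il10ra* (2.17), *Il13ra1* (0.70) and *Il6st* (0.51), the shared signaling chain of interleukin-6 type receptors, rose and *Il6ra* fell by 0.65 log2 units. *Il10ra* went from 0.951 ± 0.197 to 4.26 ± 0.329 CPM, and its leptin effect was larger in AgRP than in POMC neurons by 2.58 log2 units (FDR = 0.0413). Against fed mice, *Il10ra*, *Il2rg*, *Lepr* and *Ghr* were higher, at 1.91, 1.46, 1.21 and 0.69 log2 units. The 13 tested phosphatases, PIAS proteins and partners of the SOCS box had no call on fasting and 2 under leptin, *Cul5* (1.52), the scaffold of the ubiquitin ligase that SOCS proteins join, and *Ptpn1* (0.52), a phosphatase of JAK2. *Cul5* went from 140 ± 14.7 CPM fasted to 401 ± 127 CPM under leptin, and both genes were also above fed mice, at 1.71 and 0.66 log2 units.

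Genes known as targets of the member STATs can be read against the 2.82%, 1.19% and 3.73% of all genes called higher in the 3 comparisons, though each list is short. Of 8 tested STAT5 targets, the survival gene *Bcl2l1* rose on fasting (0.69), none was called under leptin against fasted, and *Pim3* (0.68), *Pim1* (0.60) and *Bcl2l1* (0.59) were above fed mice under leptin. Of 2 tested STAT6 targets, the chemokine *Ccl17* rose on fasting (1.83), from 0.777 ± 0.0964 to 2.79 ± 1.03 CPM, and was also higher under leptin than in fed mice (1.53). Of 14 tested ISGF3 targets, *Irf9*, itself a subunit of that complex, fell on fasting (-0.68) and rose under leptin (1.13, FDR = 0.000709), from 14.4 ± 1.54 to 31.5 ± 5.12 CPM. *Eif2ak2* (0.66) and *Ddx58* (0.65), sensors of double-stranded RNA, rose on fasting, and *Rsad2*, an antiviral enzyme, was below fed mice under leptin (-0.84). No gene of these lists was called in POMC neurons. With the replicate block *Socs3* was called there under leptin, at 2.82 log2 units against fasted (FDR = 0.00188, and 0.892 without the block) and 1.34 against fed (FDR = 0.0179, and 1.00 without it). Between the neuron types, 5 receptors were higher in AgRP neurons (*Il2rg* 3.61, *Ghr* 2.59, *Lepr* 2.15, *Il4ra* 0.84, *Il10ra* 0.71) and 2 lower (*Prlr* -1.29, *Il13ra1* -0.68), and *Stat3* (0.91) and *Socs3* (1.04) were higher.

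For the 4 members called in AgRP neurons, the genes of most similar pattern over the 11 AgRP libraries were found by the root mean square (RMS) difference of log2 CPM values centred on each gene's mean, among 13400 other genes. For *Socs1* they were *Irf9* (0.109), *Insm1* (0.142), *Man2a1* (0.177), *Mc3r* (0.180) and *Rnf122* (0.182), where the median over all genes was 0.529. For *Stat2* they were *Nr3c2* (0.146), *Rnf122* (0.155), *Itga6* (0.166), *Elovl1* (0.178) and *Man2a1* (0.185), with a median of 0.539. *Rnf122* and *Man2a1* were thus in both groups of 5. For *Socs2* they were *Fam179a* (0.141), *Sowahc* (0.185), *Jun* (0.205), *Etv6* (0.219) and *Nr3c2* (0.220), with a median of 0.694. *Cish* had more distant neighbours, *Sema3e* (0.209), *Pik3r5* (0.231), *Hmcn1* (0.248), *B3gnt7* (0.254) and *Gch1* (0.258), with a median of 0.460.

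Chromatin was then read around the 9 start sites. Of the 77 peaks, 62 passed the filter of a mean over 1 CPM, and all 9 start sites had a peak over them or within 1 kb. The start sites of *Stat5a* and *Stat5b* are 8.63 kb apart, so these genes share most of their peaks, and a peak within 50 kb may belong to another gene. On fasting, 8 of the 62 peaks opened (12.9%) and 1 closed (1.61%), against 18.1% and 8.88% of the 102237 peaks tested. Under leptin against fasted, 2 opened (3.23%) and none closed, against 2.41% and 0.669%. Against fed mice, leptin-treated mice had 5 opened (8.06%) and 7 closed (11.3%) peaks, against 23.3% and 13.4%. The median log2 fold changes of the 62 peaks were -0.16, -0.07 and -0.23, and those of all peaks -0.04, -0.02 and -0.05.

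No start-site peak was called in these 3 comparisons. That of *Socs1* was at 118 and 126 CPM in fed, 93.9 and 94.0 in fasted and 89.8 and 83.5 in leptin-treated libraries. It was thus highest in the fed libraries, with log2 differences of -0.38 on fasting (SE 0.11, FDR = 0.0155) and -0.50 for leptin against fed (SE 0.11, FDR = 0.00180), just within the fold threshold. With other scaling (edgeR RLE, -0.52) or DESeq2 (-0.52) the latter passed it. The *Socs5* start site was at 113 and 121, 108 and 98.8, and 86.2 and 84.7 CPM, at -0.45 for leptin against fed (FDR = 0.00398). The start site of *Stat2*, a gene whose RNA rose under leptin, was at 29.6 to 34.2 CPM in the 6 libraries, with all states overlapping. That of *Socs2* was at 60.3 to 94.8 CPM, with fed replicate 1 alone above 68.7, and that of *Cish* at 23.7 to 41.3 CPM with both ends in fasted mice. For leptin against fasted no start-site peak had an FDR under 0.232.

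**Figure D3:**
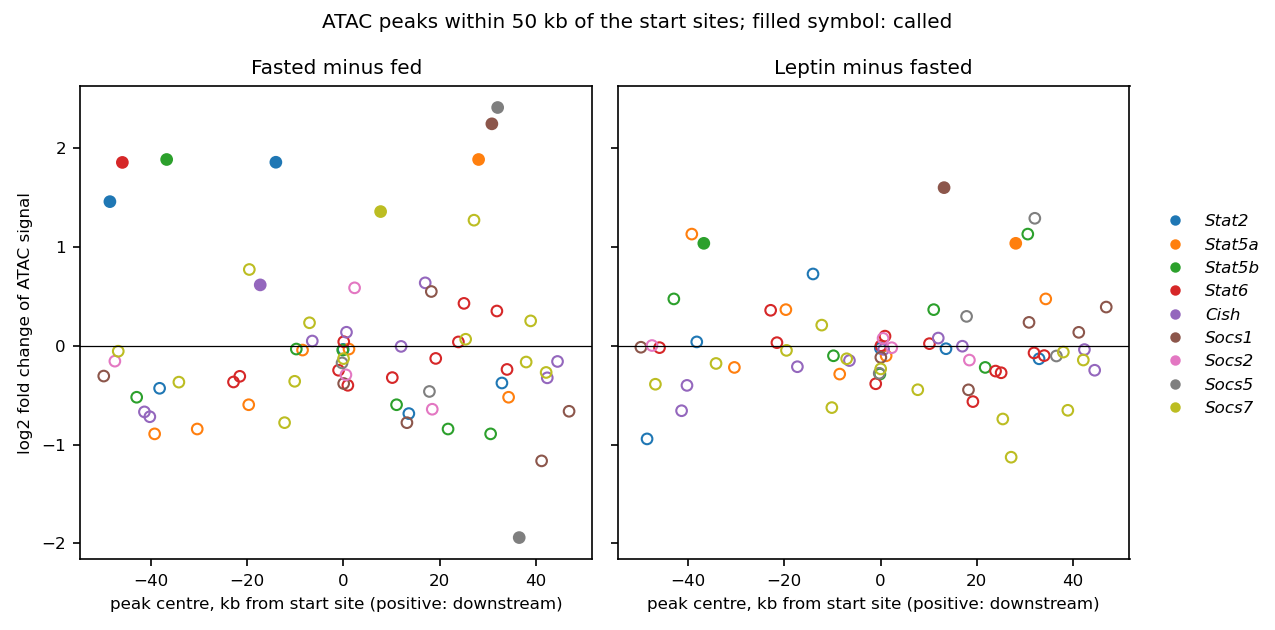
Log2 fold change of ATAC signal (vertical axis) against the distance of the peak centre from the start site (kb, positive downstream) for the tested peaks within 50 kb of each member, on fasting and under leptin; colours give the gene and filled symbols passed the call. Peaks shared by *Stat5a* and *Stat5b* appear under both genes. The called peaks lie 7.7 kb or more from the start sites.

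The peak with the lowest FDR on fasting was intergenic, 30.9 kb downstream of *Socs1* (chr16:10754296-10755060), whose nearest start site of a coding gene is that of *Socs1*. It was at 5.79 and 13.2 CPM in fed, 46.8 and 49.5 in fasted and 62.1 and 51.6 in leptin-treated libraries. Fasted and leptin-treated libraries were all far above the fed ones, at log2 differences of 2.25 on fasting (SE 0.25, FDR = 1.32e-05) and 2.48 for leptin against fed (SE 0.24, FDR = 2.54e-06). The 4 fits without 1 library kept the call, with log2 fold changes of 1.85 to 3.04. The fed libraries differed from each other more than the others did, and fed replicate 1 was the shallowest library of the set. *Socs1* RNA was lower in fasted than in fed libraries, while this peak was higher.

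Nearer to *Socs1*, the intergenic peak 13.2 kb downstream of its start (chr16:10772081-10772582), the one with 2 GAS, was at 8.69 and 3.22 CPM in fed, 2.46 and 3.79 in fasted and 11.7 and 7.58 in leptin-treated libraries. Both leptin-treated libraries were above both fasted ones, and the fed pair overlapped both. It opened under leptin against fasted (log2 fold change 1.60, SE 0.39, FDR = 0.0233). This call was lost in 3 of the 4 fits without 1 library (FDR 0.0318 to 0.294) and held without fasted replicate 2. The other peak that opened under leptin lies 28.1 kb downstream of *Stat5a* in an exon of *Stat3* (chr11:100887105-100887805). It was at 1.76 and 2.71 CPM in fed, 9.89 and 7.51 in fasted and 22.5 and 13.6 in leptin-treated libraries, a stepwise order without overlap. Its log2 fold changes were 1.88 on fasting (FDR = 0.00324), 1.04 under leptin against fasted (FDR = 0.0470) and 2.92 against fed (FDR = 2.30e-05). The leptin call was lost in all 4 fits without 1 library (FDR 0.0508 to 0.460).

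**Figure D4:**
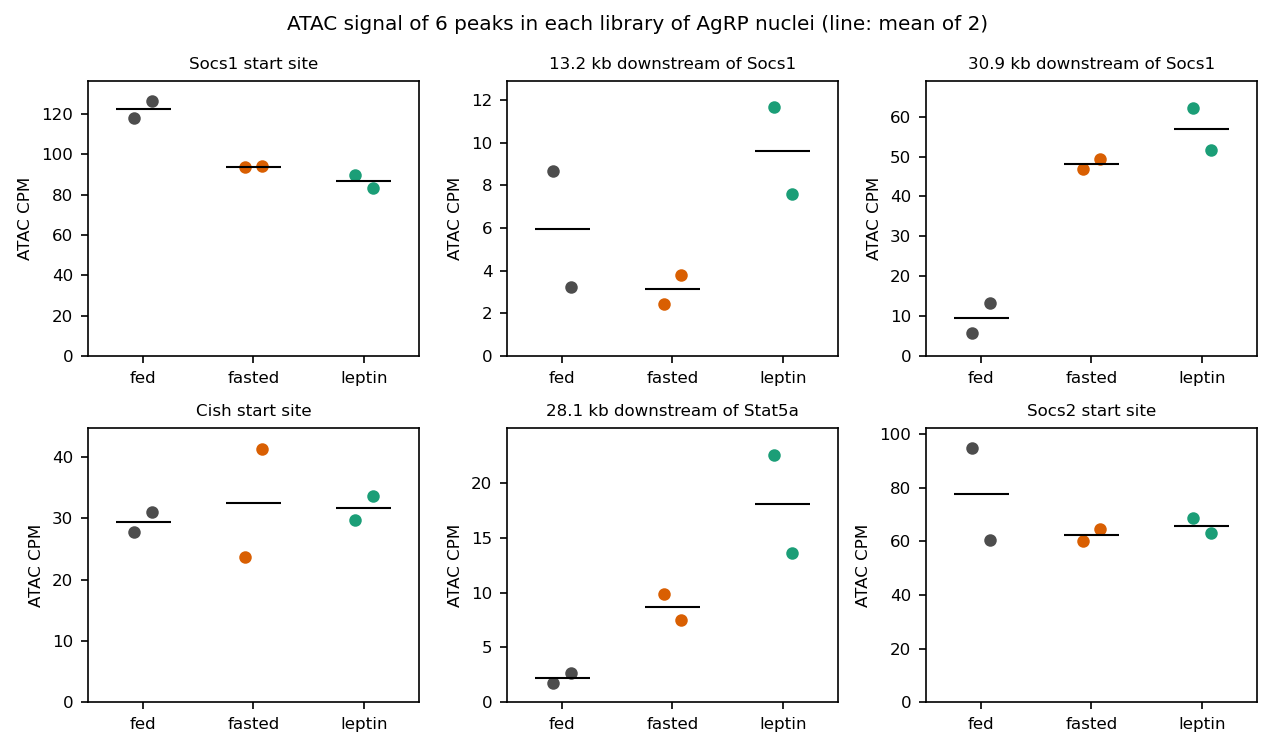
ATAC signal (CPM, vertical axis from 0, own scale in each panel) of 6 peaks in each library of fed, fasted and leptin-treated AgRP nuclei; points are libraries and lines are group means. The peak 30.9 kb downstream of *Socs1* is at 5.79 and 13.2 CPM in fed libraries and at 46.8 or more in the other 4, while the start-site peak of *Socs1* is highest in the fed libraries.

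The largest fold gain on fasting was that of a weak peak 32.1 kb downstream of *Socs5*, at 0.126 and 0.219 CPM in fed and 0.711 and 1.33 in fasted libraries (log2 fold change 2.41, FDR = 0.0459), which reached 2.61 and 2.43 CPM under leptin (3.70 against fed, FDR = 0.000474). This peak passed the filter of a mean over 1 CPM only through its leptin-treated libraries, so its gain against fed is not independent of the filter. Its fasting call held in 1 of 4 fits without 1 library, the one without fasted replicate 1 (FDR 0.0377 to 0.234 over the 4), and was lost with DESeq2 (FDR = 0.0666). The 1 peak that closed on fasting was close by, 36.5 kb downstream of *Socs5*, at 2.14 and 2.49 CPM in fed and 0.905 and 0.316 in fasted libraries (-1.94, FDR = 0.0137). It passed the filter only through its fed libraries, so a call against fed could only be a closing. This call was lost with DESeq2 (FDR = 0.0596) and without fasted replicate 2. Leaving out 1 library tested the peak in only 2 of the 4 fits, with log2 fold changes of -2.85 and -1.36. Under leptin it was at 0.493 and 0.622 CPM (-2.04 against fed), a call lost without leptin replicate 1. Here too only 2 fits without 1 library tested the peak, at -2.22 and -1.89. The remaining opened peaks on fasting were 14.03 and 48.5 kb upstream of *Stat2*, 45.9 kb upstream of *Stat6* within *Lrp1*, 7.7 kb downstream of the *Socs7* start in its intron, and 17.3 kb upstream of *Cish* within *Mapkapk3*, with log2 fold changes from 0.62 to 1.86. For leptin against fed, the largest losses after *Socs5* were 41.4 and 40.2 kb upstream of *Cish*, at -1.33 and -1.12, both no longer called without leptin replicate 2 (FDR = 0.0577 and 0.117).

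A comparison of AgRP-positive with AgRP-negative nuclei asked which of these regions differ between the sorted populations. The negative nuclei were the GFP-negative ones of the dissected tissue. The paper reports less open chromatin at oligodendrocyte and tanycyte marker genes in AgRP neurons. Whether a difference sets AgRP neurons apart from other neurons or from non-neuronal cells was not tested. Of the 45 peaks, all tested, 7 were called higher and 7 lower (15.6% each), against 23.9% and 15.6% of the 66560 peaks tested. With library size alone, which moved the median of all peaks by 0.163, 11 member peaks were higher and 4 lower. The peak 30.9 kb downstream of *Socs1* was at 9.69 and 7.00 CPM in AgRP-positive and 2.46 and 1.66 in AgRP-negative nuclei, a log2 difference of 2.01 (SE 0.38, FDR = 1.60e-06) that held in all 4 fits without 1 library. The other large gains were in an intron of *Stat5b* 30.5 kb from its start (2.30, FDR = 0.000666) and 46.8 kb downstream of *Socs1* within *Clec16a* (2.07, FDR = 0.0308). Both peaks passed the filter only through their AgRP-positive libraries, so a call could only be a gain. Without 1 library the first was called in 3 of 4 fits and the second in 1 of 3. The largest losses were 28.5 and 27.2 kb upstream of *Stat6* within *Lrp1* (-2.06 and -1.73) and 6.2 kb upstream of *Socs5* (-1.88). The first was called in all 4 fits without 1 library, the second in 3, being lost without AgRP-negative replicate 2 (FDR = 0.130), and the *Socs5* peak in 1, without AgRP-positive replicate 2 (FDR 0.00440 to 0.328 over the 4). With DESeq2 the *Socs5* peak was not called (FDR = 0.0635). It passed the filter only through its AgRP-negative libraries, so a call could only be a loss. Of the 4 peaks downstream of the *Cish* start region, those at 12.1 and 16.985 kb were higher in AgRP-positive nuclei (0.95 and 1.70), each with 1 GAS, and those at 42.3 and 44.5 kb were not called. None of the 8 start-site peaks was called. The nearest was *Socs2*, at 69.4 and 70.3 against 54.7 and 47.4 CPM (0.45, FDR = 0.00190).

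The shares of member peaks with a STAT pattern or IRF3 binding were near those of all peaks or below them. In the central 300 bases, GAS was found in 5 of the 62 peaks (8.06%), against 12.4% of all peaks tested, the wider site in 6 (9.68%), against 8.01%, and the ISRE core in 1 (1.61%), against 4.12%. The 1 peak with the ISRE core there was the *Socs1* start site, and 3 of the 5 with GAS lay within 20 kb of *Cish*. The ISRE core of the *Stat2* promoter lies in the *Stat2* start-site peak too, but outside its central 300 bases, and was not counted. IRF3 binding was read by CUT&RUN in 1 library of AgRP neurons of untreated fed mice that overexpress IRF3-2D, a constitutively active form, and not in the mice of the 3 states. The peaks of the list taken to be from this library overlapped 6 of the 62 (9.68%), against 9.88% of all, including the start sites of *Stat2*, *Socs1* and *Socs7*. The AP-1 pattern TGANTCA was looked for only after the sequence of the peak 30.9 kb from *Socs1* had been read. It was in 32.2% of all peaks and 71.1% of all peaks that opened on fasting. Of the 8 member peaks that opened on fasting 5 held it (62.5%), and of the other 54 member peaks 4 did (7.41%). The peak beside *Socs1* holds 4 matches, and 6.36% of all peaks hold 2 or more.

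Some counts near the members cannot be assigned to 1 gene. The library kit does not mark strand, and exons of *Stat5a* overlap those of *Stat3* on the other strand by 72 bases, those of *Stat6* overlap *Nab2* by 40 bases, and those of *Cish* overlap the antisense *Gm17041* and the pseudogene *Gm17040*, so reads from these stretches cannot be told apart. *Stat5a* and *Stat5b* are closely related genes with stretches of similar sequence. Primary alignments were counted, so a read that matches both genes may have gone to either, and their separate values are uncertain to that extent.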

How the data were processed

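The authors deposited read counts per gene for 17 RNA libraries and counts per peak for 6 and 4 ATAC libraries. RNA was purified with tagged ribosomes, depleted of ribosomal RNA, tagmented (no strand), aligned with HISAT2 and primary exon alignments counted with featureCounts on GRCm38 with fewer overlapping transcripts. ATAC reads were aligned to mm10 with Bowtie2 and peaks called with MACS2. The authors' CUT&RUN list gives SEACR signal per peak and names no sample. It was taken to be that of the 1 IRF3 library of the IRF3-2D model, as the only such list. A sample description also names an IRF3 SEACR list. The list was used for positions only. Samples were grouped by their titles. Fed AgRP replicate 2 was lost in library preparation, per the study's methods. Replicates are pools of different mice.

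Counts were fitted with edgeR 4.0.16 (R 4.3.3): TMM scaling, features with a mean over 1 CPM, quasi-likelihood tests, Benjamini-Hochberg FDR over all features tested. SE is the absolute log2 fold change divided by the square root of F. CPM values use TMM library sizes. Peaks with any base within 50 kb of the 5′ end of a member's gene record were kept. The code was tested on simulated data. Alternatives were RLE scaling, library size alone, no filter, DESeq2 1.42.0, an older edgeR fit, all 17 libraries, other peak windows, a replicate block and each replicate left out.

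The replicate number paired the AgRP RNA libraries: deviations from group means correlated at 0.565 to 0.838 over 10 same-number pairs (median 0.721) and at -0.670 to 0.673 over 30 others (median -0.244). All members were named whatever their values, with called pathway genes (at most 5 each way), *Stat3* and *Socs3*, start-site peaks and called peaks (at most 3 each way, the others after their values were seen), and the 5 genes most like each called member. A gene of the pathway lists is not reported here. The members and lists were chosen with earlier results of these data known.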

Additional observations from a re-analysis of the deposited data

Results flagged for a closer look

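*Stat2* in leptin-treated AgRP neurons had 1 library far from the rest. Leptin replicate 1 was at 19.4 CPM, and the other 3 libraries lay between 13.6 and 13.8 CPM, so that the gap took up 0.974 of the whole range of the group. This was 1 of 18 groups of 4 libraries examined, and chance alone sets apart about 1 in 20. Without that library the log2 fold change of *Stat2* was 1.00 for leptin against fasted and 0.57 for leptin against fed, and both stayed called.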

How the results depend on the processing

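Of the 3 AgRP RNA comparisons, library size alone gave 0 members lower on fasting in place of 2 and 1 higher for leptin against fed in place of 2, and no filter gave 1 lower on fasting. Where leaving out 1 library left a lone sample in a group, it was assumed to vary like the other groups. Leaving out 1 library gave 0 to 1 lower on fasting, 3 in every fit for leptin against fasted, and 1 to 2 higher for leptin against fed. The replicate block gave 4 members higher for leptin against fasted and 3 for leptin against fed. No called value changed sign in any alternative run. Values that were not called did: *Cish* for leptin against fed ran from -0.34 to 0.13 without 1 library, the start-site peaks of *Socs2* and *Cish* on fasting from -0.61 to 0.03 and from -0.31 to 0.49, and *Stat5b* and *Socs7* between the neuron types went to 0.05 and 0.03 with library size alone.

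Peak counts moved more. On fasting, 8 opened peaks became 5 with DESeq2, 4 where the nearest coding start site had to be a member's, 1 within 10 kb and 5 to 6 without 1 library; the 1 closed peak became 0 with DESeq2 or within 10 kb, 2 with RLE scaling, 4 with the replicate block and 0 to 2 without 1 library. For leptin against fasted, 2 opened became 1 with DESeq2, 0 with the older fit or within 10 kb, and 0 to 1 without 1 library. For leptin against fed, 5 opened became 3 by nearest start site and 0 within 10 kb, and 7 closed became 3 and 1. Without 1 library these were 4 to 6 and 2 to 9. In sorted nuclei, 7 higher became 3 with DESeq2, 11 with library size alone, 0 within 10 kb and 3 to 7 without 1 library, and 7 lower became 4, 4, 1 within 10 kb, 2 by nearest start site and 2 to 6. The cause was not tested.

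Library size alone moved the median of all sorted peaks to 0.163 and gave 18225 higher and 7296 lower in place of 15926 and 10405, and for AgRP against POMC it gave 1230 and 655 genes in place of 875 and 866. Over all genes the replicate block gave 590 and 340, 242 and 148, and 715 and 433 AgRP calls in place of 378 and 143, 160 and 85, and 500 and 235; library size alone gave 148 and 90, 107 and 39, and 194 and 135. For the differences between neuron types the block gave 582 and 254 genes for fasting and 45 and 57 for leptin in place of 19 and 3 and of 6 and 5, and DESeq2 gave 125 and 41, and 26 and 13. In POMC neurons the block gave 0 and 3, 7 and 1, and 26 and 18 in place of 0. ATAC and POMC numbers were not treated as pairs: same-number correlations were -0.00552 to 0.180 for ATAC and 0.7605 to 0.794 for POMC, where the other pairs mirror them (-0.794 to -0.7605) because each group has 2 libraries, too few numbers to settle the pairing. The block called no member in POMC neurons. Positive and negative nuclei came from shared pools, and the block gave 8 higher and 7 lower. With 2 libraries a state, and 20 to 89 reads for *Socs1*, POMC and peak results have low precision.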
